A study of Macaca fascicularis with 20 samples.

Results

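The genes described here encode ribosomal proteins and factors that start translation, measured in natural killer (NK) cells and in B cells from the spleen of the cynomolgus macaque, Macaca fascicularis. They were chosen by symbol alone: cytosolic ribosomal proteins (RPL and RPS, without the RPS6K kinases), mitochondrial ribosomal proteins (MRPL and MRPS) and initiation factors (EIF1 to EIF6). Of 211 such symbols in the RefSeq gene table of the species, 139 had a probe whose transcript accession matched, out of 12530 genes with a matched probe on the array. The 139 were 46 cytosolic ribosomal protein genes (28 of the large and 18 of the small subunit), 62 mitochondrial ribosomal protein genes (37 large and 25 small) and 31 initiation factor genes. The symbol rule also took paralogs such as RPL3L, RPL7L1, RPL22L1, RPL26L1, RPL36AL, RPL39L and RPS27L. It took regulators as well, such as the eIF4E binding proteins and the eIF2 kinases, which are no core initiation factors. Nor is EIF1AD, which is named for an eIF1A domain and was grouped with eIF1 and eIF1A. RPLP0, RPL3, RPL10, RPL22, RPS4X, EIF2S1 and EIF2AK2 were not analysed here.

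Cytosolic ribosomes join a small subunit, which reads the mRNA, to a large subunit, which forms the peptide bond, and their proteins are made in matched amounts in dividing and growing cells. Mitochondrial ribosomes are a separate set, encoded in the nucleus, that translate the few mRNAs of the mitochondrial genome. Initiation begins when eIF2 brings the initiator tRNA to the small subunit with eIF1, eIF1A and eIF3, and when the cap-binding eIF4E, the scaffold eIF4G and the helicase eIF4A recruit the mRNA. In lymphocytes this machinery expands on activation under control of mTOR, and the cells profiled here were not stimulated.

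All NK cells were sorted as live CD45+ cells without CD3, CD14, CD20 and HLA-DR that carried NKG2A and CD8a, and were divided by surface CD27 and CD11b. The groups were CD27lo CD11blo (double-low, 4 arrays), CD27+ CD11blo (CD27 single-positive, 4), CD27+ CD11b+ (double-positive, 5), CD27lo CD11b+ (CD11b single-positive, 5) and NKG2A- CD8a- HLA-DR+ CD20+ B cells (2). Every sample came from spleen cells that had been frozen and thawed, and 50 ng of RNA went through isothermal linear amplification of the whole transcriptome before 400 ng of product was labelled with Cy3 for 1-colour Agilent arrays. The labels call the NK samples biological replicates, yet origin, sex and age recur across subsets, so 1 animal may have given several sorts. Replicate 1 of each NK subset carries the labels of a Cambodian male of 4 years, replicate 2 of a Vietnamese male of unstated age, and replicate 3 of Vietnamese males whose age is given as 9 to 12 years depending on the subset. The later replicates are labelled as Singapore animals: a female of 18 years (replicate 4 of the CD11blo subsets, replicate 5 of the CD11b+ subsets and B cell replicate 2), a male of 5 years (replicate 4 of the CD11b+ subsets) and a female of 5 years (B cell replicate 1).

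Precision is limited by how many arrays there were, and these stood on 3 slides. Replicates 1 and 2 of the 4 NK subsets shared the first slide. The second carried replicate 3 of each subset with replicate 4 of the CD11blo subsets and the B cell pair, and replicates 4 and 5 of the CD11b+ subsets made up the third. Per array, the 75th percentile of intensity ran from 180.0 to 1897.4 units, and double-positive replicate 4 (180.0) and double-low replicate 4 (199.6) were the dimmest. The NK and B cell labels fitted the markers. The summed level of 11 NK genes lay at a log2 of 5.90 to 8.18 on the NK arrays and 2.40 to 2.44 on the B cell arrays. That of 8 measured B cell genes of 11 lay at 0.55 to 3.21 and 5.69 to 5.83. The CD27 transcript averaged 3.27 ± 1.13 (SD, n = 4) in double-low cells and 4.32 ± 0.56 (SD, n = 4) in CD27 single-positives. It averaged 3.85 ± 0.24 (SD, n = 5) in double-positives and 3.17 ± 0.45 (SD, n = 5) in CD11b single-positives. All levels below are log2 signal minus the log2 of the array's 75th percentile, so levels are relative to that percentile. Levels are compared between arrays for the same probe and never between genes. All 139 genes passed the filter on dim probes, and 110 of them were above background on all 20 arrays (45 cytosolic, 40 mitochondrial, 25 initiation). MRPL37 (14 arrays), MRPL36 (15) and MRPS23 (16) were above background on the fewest, and no gene of the 139 was below background on every array of any group.

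The 46 cytosolic ribosomal protein genes varied together from array to array. The median of the 46 on each array averaged 4.26 ± 0.76 (SD, n = 4) in double-low cells, 4.79 ± 0.56 (SD, n = 4) where CD27 alone was present, 4.78 ± 0.63 (SD, n = 5) in double-positives, 4.12 ± 0.72 (SD, n = 5) in CD11b single-positives and 5.09 ± 0.11 (SD, n = 2) in B cells. Both CD27+ subsets thus stood above both CD27lo subsets in the mean, and the arrays of all 4 subsets overlapped. The initiation genes also had both CD27+ subsets above both CD27lo subsets, with medians of -0.22 ± 0.43 (SD, n = 4), 0.77 ± 0.38 (SD, n = 4), 0.71 ± 0.33 (SD, n = 5), 0.14 ± 0.47 (SD, n = 5) and 0.82 ± 0.02 (SD, n = 2) for the same groups. Mitochondrial ribosomal protein genes averaged -0.76 ± 0.18 (SD, n = 4), -0.20 ± 0.39 (SD, n = 4), -0.50 ± 0.33 (SD, n = 5), -0.55 ± 0.28 (SD, n = 5) and -0.11 ± 0.02 (SD, n = 2). In RNA from sorted bulk cells, a lower level per cell and fewer cells with that level cannot be told apart.

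**Figure D1:**
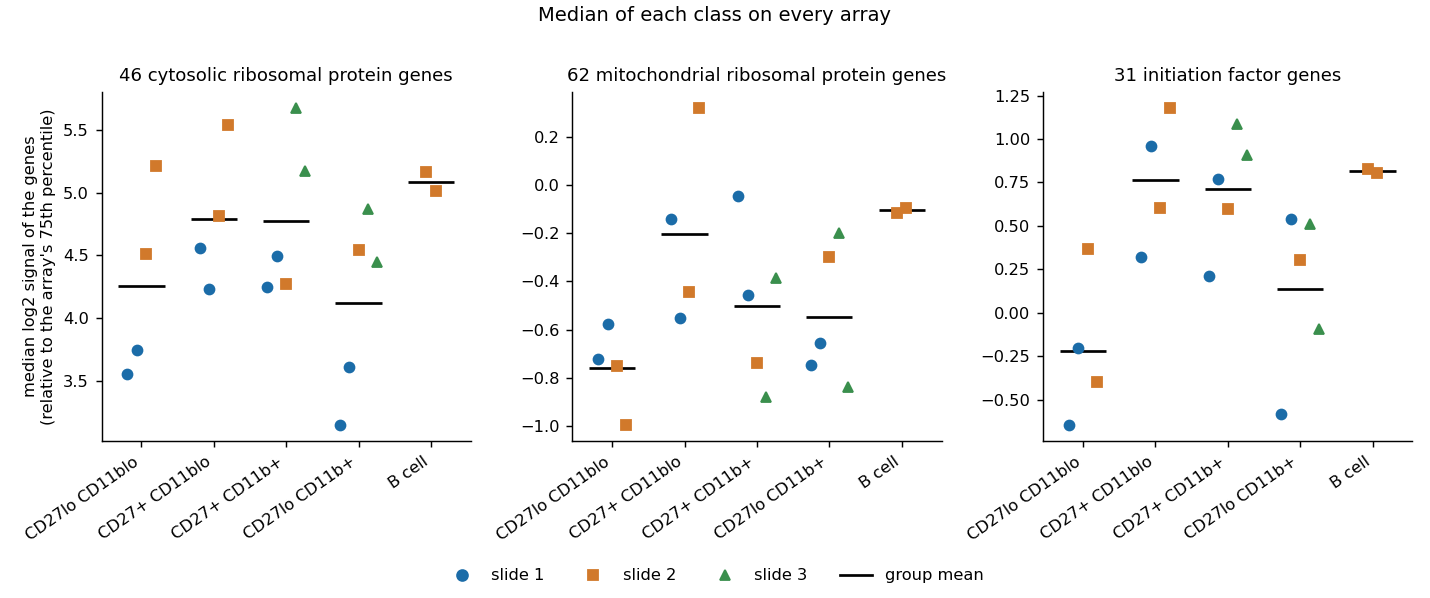
Median log2 signal, relative to the array's 75th percentile, of the 46 cytosolic ribosomal, 62 mitochondrial ribosomal and 31 initiation genes on every array (1 point per array, marked by slide; the line is the group mean; vertical axes differ). On the first slide the 4 CD27+ arrays lie above the 4 CD27lo arrays for the cytosolic genes (4.24 to 4.56 against 3.14 to 3.75), while on the second slide they overlap (4.27 to 5.54 against 4.51 to 5.21).

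To ask whether CD27 status goes with these transcripts, CD27+ and CD27lo NK cells were compared with CD11b balanced, 9 arrays against 9, in limma over 12192 genes. Of the 139 genes 0 passed an adjusted p of 0.05, as did 0% of all genes. At an unadjusted p of 0.05, 36 of the 139 (25.9%) were reached, against 22.1% of all genes. No gene of the 139 had all 9 CD27+ arrays above all 9 CD27lo arrays, as 0.0164% of all genes did. The directions differed: 29 of the 139 (20.9%) were higher in CD27+ cells at that level against 6.37% of all genes, and 7 (5.04%) were lower against 15.7%. The median difference was 0.56 for the cytosolic genes, 0.32 for the mitochondrial and 0.24 for the initiation genes, beside -0.37 for all genes and 0.08 for the 10% of genes with the brightest signal. Those brightest 10% held 36 of the 46 cytosolic, 8 of the 62 mitochondrial and 9 of the 31 initiation genes. Quantile normalization moved the median of all genes to -0.13 and gave 0.45, 0.50 and 0.46 for the 3 classes, so the cytosolic genes then no longer led. The initiation median also depended on the probes: it was 0.48 with the mean of all probes of a gene, and 0.48 over the genes above background on every NK array. With 1 array left out it ran from 0.10 (without CD11b single-positive replicate 1) to 0.43 (without double-low replicate 3), and the mitochondrial median from 0.18 (without double-positive replicate 1) to 0.40. Under quantile normalization 1005 of the 2297 genes at an unadjusted p of 0.05 were higher in CD27+ cells, where 777 of 2695 were before. With normexp background correction 32 of 35 of the ribosomal and initiation genes at that level were higher, where 29 of 36 were before. These fits take no pairing. With replicate number as a block, 53 of the 139 (38.1%) reached that level, against 23.4% of all genes. Of the 53, 48 were higher in CD27+ cells, beside 988 of 2856 for all genes, and 0 of the 139 passed the adjusted test.

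The slides gave unequal values. The cytosolic median difference was 0.77 on the first slide, 0.12 on the second and 0.69 on the third, taken as simple differences of means, and that of all genes was -0.60, -0.18 and 0.02. The initiation median was 0.57, 0.12 and 0.50, and the mitochondrial median 0.43, 0.18 and -0.16. Of the cytosolic genes 28 of 46 (60.9%) were above 0 on all 3 slides, as were 16 of 62 mitochondrial (25.8%) and 11 of 31 initiation genes (35.5%), against 12.7% of all genes and 26.4% of the brightest 10%. On the first slide alone 14 of the 139 genes passed an adjusted p of 0.05, where 1375 of 12192 genes (11.3%) did. On the second slide alone none of the 139 passed and 0 reached an unadjusted p of 0.05, beside 2.72% of all genes. The signal of the arrays moved with CD27 on the first slide, where the 75th percentile was 1313.5 to 1897.4 on CD27+ arrays and 622.4 to 1060.6 on CD27lo arrays, and its part in the difference was not tested. Without CD27 single-positive replicate 4 the count at an unadjusted p of 0.05 was 20, the lowest with any array left out.

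**Figure D2:**
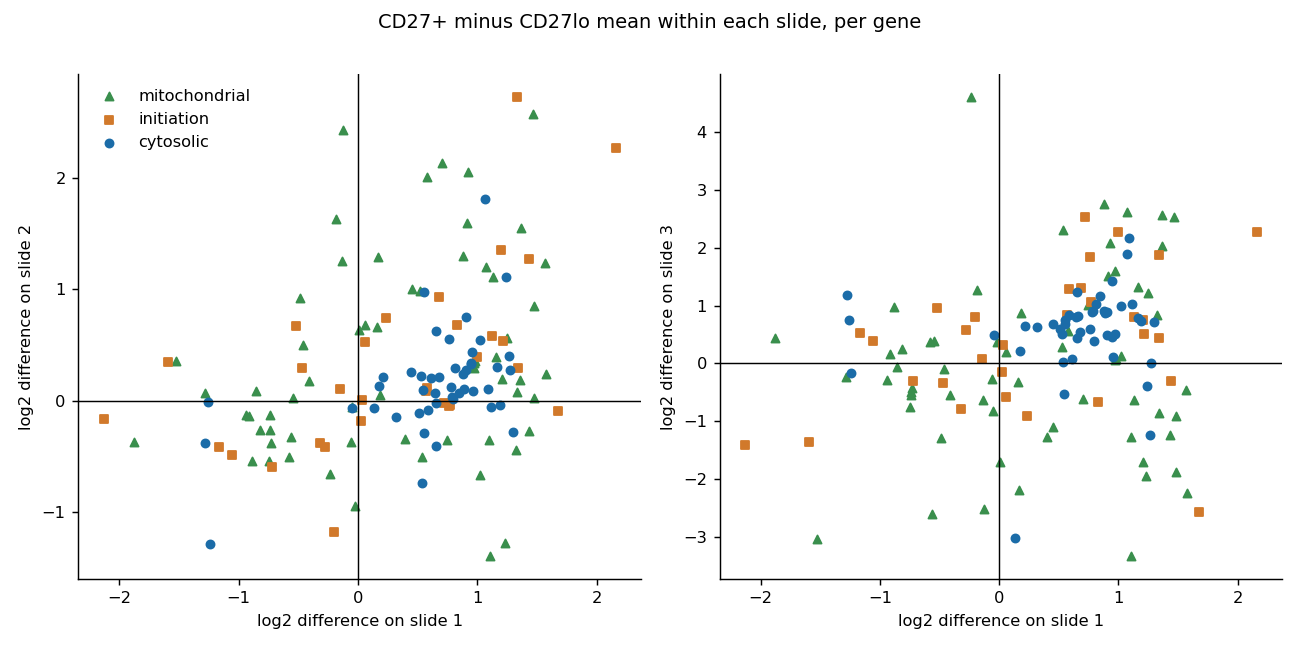
CD27+ minus CD27lo log2 difference of each of the 139 genes on the first slide (horizontal) against the second (left) and the third (right), 1 point per gene coloured by class. The cytosolic genes cluster in the upper right, where 28 of 46 are above 0 on all 3 slides, and the mitochondrial genes scatter over all quadrants.

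Markers of other cells were read in the same comparison. Decorin (DCN, stroma) was lower in CD27+ cells by a difference of -1.42 ± 0.40 (limma SE), the haemoglobin chaperone AHSP by -0.80 ± 0.29 and the B cell factor PAX5 by -0.98 ± 0.35, at adjusted p of 0.198 to 0.199. The summed level of 6 measured stromal genes of 8 was 0.47 to 2.25 on CD27lo and -0.22 to 2.11 on CD27+ arrays, that of 8 measured B cell genes 0.63 to 3.21 and 0.55 to 1.89, and that of 3 measured erythroid genes of 6 was 1.65 to 3.30 and 1.77 to 3.24. All 8 measured B cell, all 6 stromal and all 3 erythroid genes had a difference below 0, in a comparison where 33.9% of all genes were above 0, and none passed the adjusted test. At an unadjusted p of 0.05, 2 of the 8, 2 of the 6 and 1 of the 3 were lower. Of the measured T cell genes 3 of 4 were above 0 (median 0.09), as were 8 of 11 NK genes (median 0.44), 3 of 6 plasma cell genes and 1 of 7 monocyte genes. Each range overlaps between CD27lo and CD27+ arrays, and the part of these cells in the ribosomal differences was not tested.

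Among cytosolic ribosomal proteins, 42 of 46 differences between CD27+ and CD27lo cells were above 0 (91.3%), against 33.9% of all genes and 50.8% of the brightest 10%. The median was 0.59 in the large subunit (25 of 28 above 0) and 0.49 in the small subunit (17 of 18). The exceptions were RPL37 (-1.06 ± 0.48), the testis-type paralog RPL39L (-0.59 ± 0.69), the muscle-type paralog RPL3L (-0.44 ± 0.32) and RPS26 (-0.47 ± 0.37). At an unadjusted p of 0.05, 10 cytosolic genes (21.7%) were higher, against 6.37% of all genes. At that level 1 (2.17%), RPL37, was lower, against 15.7%. In both directions together 23.9% of the class reached it, near the 22.1% of all genes.

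RPS27L, a paralog of the small-subunit protein RPS27 known as a p53 target, had the lowest p of the class. Its level was -0.69, -0.28, -1.12 and -3.42 in double-low replicates 1 to 4, and 0.90, 0.07, 0.44 and 0.94 in CD27 single-positives. Double-positives read 0.45, 0.65, -0.10, 2.56 and 0.59, CD11b single-positives -1.30, 0.07, 0.38, 0.23 and -0.85, and B cells 0.30 and 0.39. Of the 9 CD27+ arrays 7 stood above all 9 CD27lo arrays, and double-low replicate 4 was far below the rest. The difference was 1.54 ± 0.43 (limma adjusted p = 0.198) and 0.99 without the 2 dimmest arrays. RPS27 itself lay at 3.59 to 6.04 on CD27+ arrays and 2.97 to 5.6 on CD27lo arrays, a difference of 0.61 ± 0.42.

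RPS6, the small-subunit protein phosphorylated by the S6 kinases below mTOR, read 2.53, 2.43, 3.45 and 2.86 in double-low cells and 4.13, 3.28, 3.52 and 4.29 in CD27 single-positives. In double-positives it was 3.74, 3.50, 2.52, 3.69 and 4.61, and in CD11b single-positives 2.31, 2.73, 3.10, 3.84 and 2.90. The groups overlapped, with 8 of 9 CD27+ arrays above the CD27lo median, and the difference was 0.81 ± 0.29 (limma adjusted p = 0.199). RPL13A, a large-subunit protein that also serves in the interferon-gamma activated translation inhibitor complex, gave 0.87 ± 0.30 (limma adjusted p = 0.199). Its CD27+ arrays ranged from 2.01 to 3.47 with a median of 2.81 and its CD27lo arrays from 0.56 to 2.66 with a median of 2.18. On the second slide alone that difference was 0.39.

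RPL22L1, the paralog that can replace RPL22, was at -2.37 to 1.18 on CD27+ and -3.40 to -0.21 on CD27lo arrays, a difference of 1.0 ± 0.46 with adjusted p of 0.221. RPL11, which binds MDM2 when ribosome assembly is disturbed, differed by 0.58 ± 0.25, RPL6 by 0.70 ± 0.28, RPL12 by 0.68 ± 0.28 and RPS13 by 0.64 ± 0.26, at adjusted p of 0.205 to 0.215. RPL37 ran the other way: its CD27lo arrays reached 0.29 and 0.17 in double-low replicates 4 and 1, and its CD27+ arrays reached -4.98 in double-positive replicate 1, while the other 15 NK arrays lay between. These are differences of levels, and none passed the adjusted test.

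Correlations between genes were highest within the cytosolic class. Over the 18 NK arrays the mean pairwise Pearson correlation was 0.425 among the 46 cytosolic genes, 0.570 within the small subunit and 0.351 within the large, against 0.054 for all genes and 0.040 for the brightest 10%. Mitochondrial ribosomal genes had a mean of 0.030 and initiation genes of 0.051, near that of all genes. With the mean of each subset removed the cytosolic value was 0.406, and with subset and slide means removed it was 0.286, beside 0.034 for all genes. Arrays share slide, signal and donor labels, so these correlations describe the libraries.

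Most cytosolic genes followed the median of the other 45 closely. That correlation was highest for RPS28 (0.954), RPS15A (0.950), RPS27 (0.942) and RPS10 (0.941), all of the small subunit, and had a median of 0.823 over the 46. RPS28 itself read 4.6, 4.51, 6.05 and 6.16 in double-low cells, 5.58, 5.49, 6.0 and 6.60 in CD27 single-positives, 5.31, 5.30, 5.59, 7.36 and 6.27 in double-positives and 4.31, 5.12, 5.88, 5.85 and 5.97 in CD11b single-positives, with 5.68 and 5.78 in B cells. Its low values were all on the first slide, and within that slide the CD27+ arrays stood above the CD27lo arrays. Genes with the weakest tie were RPL7L1, RPL3L and RPL37, all below 0, then RPL26L1 and RPL39L, so 4 of the 5 were paralogs. RPS26, RPL13A, RPL15 and RPS29 were also under 0.3. RPL3L, RPL37 and RPS26 had the lowest mean signal of the class, and the part of low signal in these correlations was not tested. In 34 of 46 genes the correlation was over 0.5.

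**Figure D3:**
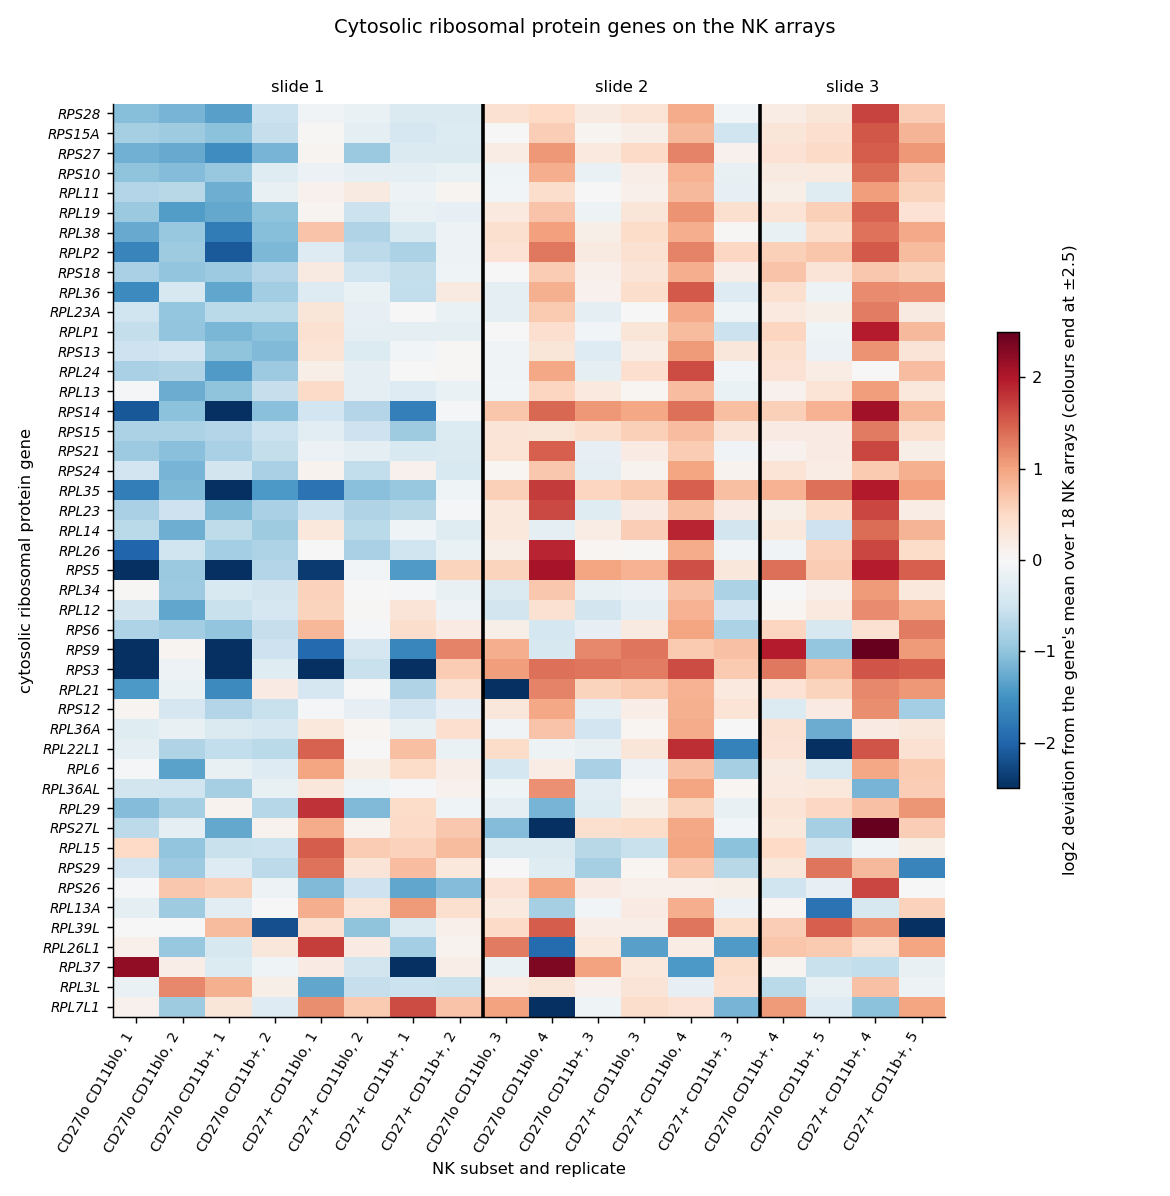
Deviation of each cytosolic ribosomal protein gene (vertical) on each of the 18 NK arrays (horizontal, ordered by slide and subset) from its own mean, in log2, with genes ordered by correlation with the median of the others. Upper genes vary together and are low in the CD27lo arrays of the first slide. They are high in replicate 4 of double-positive, CD27 single-positive and double-low cells (class medians of 5.682, 5.545 and 5.213). The paralogs RPL39L, RPL26L1, RPL3L and RPL7L1 lie at the bottom.

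Mitochondrial ribosomal proteins split in both directions. Of 62 genes 36 (58.1%) had a difference above 0 between CD27+ and CD27lo cells, against 33.9% of all genes. The medians were 0.31 in the large and 0.34 in the small subunit. At an unadjusted p of 0.05, 9 were higher (14.5%, against 6.37% of all genes) and 3 lower (4.84% against 15.7%). In both directions together 19.4% of the class reached that level, against 22.1% of all genes. Among the 41 above background on all 18 NK arrays the median was -0.10.

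MRPS25, a small-subunit protein of the mitochondrial ribosome, read 1.91, 1.63, 1.71 and -0.26 in double-low cells and 3.21, 2.99, 2.24 and 2.42 in CD27 single-positives. It was 3.01, 2.83, 1.59, 4.03 and 3.25 in double-positives, 2.07, 2.13, 1.20, 2.09 and -0.03 in CD11b single-positives and 3.17 and 2.96 in B cells. All CD27+ arrays but double-positive replicate 3 stood above all CD27lo arrays, and the difference was 1.46 ± 0.39 (limma adjusted p = 0.198), with 1.07, 1.20 and 2.61 on the 3 slides. MRPS28 differed by 2.17 ± 0.65, MRPS7 by 1.45 ± 0.44 and MRPS22 by 1.33 ± 0.41, all of the small subunit and at the same adjusted p. MRPS28 was above background on 19 of 20 arrays, and its 2 lowest levels were -4.64 in double-low replicate 4 and -4.54 in CD11b single-positive replicate 5.

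In the mitochondrial large subunit MRPL40 gave 1.58 ± 0.50 and MRPL33 1.72 ± 0.59 (limma adjusted p of 0.198 and 0.199). MRPL33 lay at 1.05 to 4.50 on CD27+ arrays and -1.67 to 2.88 on CD27lo arrays, with 6 of 9 CD27+ arrays above all CD27lo arrays. The 3 lower genes were MRPS5 (-0.70 ± 0.31), MRPL34 (-0.49 ± 0.22) and MRPS2 (-0.51 ± 0.23), at adjusted p of 0.217 to 0.221. For MRPL34 no CD27+ array reached the CD27lo median: CD27+ arrays spanned 0.29 to 1.09 with a median of 0.88 and CD27lo arrays 0.93 to 1.61 with a median of 1.38. That difference was -0.74 on the first slide alone and -0.08 on the second.

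The initiation genes are given by complex, most of which hold 1 to 3 measured genes, and complexes were not tested against each other. EIF1, EIF1AX and EIF1AD all had a difference above 0 between CD27+ and CD27lo cells. So did the measured eIF2 subunit, both measured eIF2 kinases, eIF2A and eIF2D, both helicase cofactors and 7 of 8 eIF3 subunits. All 3 eIF2B subunits, the scaffold EIF4G1 and EIF6 had a difference below 0, as did most genes on the array. Of the 31 genes 10 were higher at an unadjusted p of 0.05 (32.3%, against 6.37% of all genes) and 3 lower (9.68% against 15.7%). In both directions together 41.9% of the class reached that level, against 22.1% of all genes.

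EIF3H, a subunit of the eIF3 scaffold that holds the small ribosomal subunit, had the lowest p of the 139. Its level was 1.28, 0.94, 1.83 and 0.58 in double-low cells, 2.70, 2.18, 2.26 and 3.80 in CD27 single-positives and 3.07, 2.51, 2.75, 3.30 and 3.47 in double-positives. CD11b single-positives read 1.66, 1.78, 2.35, 3.06 and 2.22, and B cells 3.75 and 3.29. Double-low cells were below every other NK array except CD11b single-positive replicates 1 and 2, which double-low replicate 3 exceeded. All 9 CD27+ arrays stood above the CD27lo median of 1.78. The difference was 1.19 ± 0.28 (limma adjusted p = 0.198). By slide it was 1.20, 1.35 and 0.75.

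EIF3D, the eIF3 subunit that can itself bind the mRNA cap, read 1.82, 0.69, 0.93 and -3.72 in double-low cells and 3.49, 2.86, 1.65 and 3.47 in CD27 single-positives. Double-positives were at 3.53, 2.56, 1.55, 4.07 and 3.04, CD11b single-positives at 1.99, 2.60, 1.28, 2.25 and 1.1 and B cells at 2.32 and 2.11. The difference was 2.02 ± 0.59 (limma adjusted p = 0.198), and 1.27 without the 2 dimmest arrays, 1 of which is double-low replicate 4. EIF3M gave 1.07 ± 0.45 and EIF3E 0.72 ± 0.33 at adjusted p of 0.212 and 0.221. Over its 8 measured subunits eIF3 had a median difference of 0.63, and the loosely bound subunit EIF3J, at -0.21 ± 0.41, was the one below 0.

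EIF4B and EIF4H both stimulate the eIF4A helicase. EIF4B ranged over 2.56, 3.11 and 4.01 (lowest, median, highest) on CD27+ arrays and 1.27, 1.95 and 3.47 on CD27lo arrays, and EIF4H over 0.55, 1.77 and 2.49 and over -0.66, 1.08 and 1.82. The differences were 0.90 ± 0.32 for EIF4B and 0.83 ± 0.33 for EIF4H, at limma adjusted p of 0.199 and 0.208. Across the 18 NK arrays their levels correlated at a Pearson r of 0.822, given as a description. The eIF4A genes EIF4A1 and EIF4A2 were not analysed here.

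EIF4G1, the scaffold that joins the cap-binding factor to eIF3, ran the other way. It was 4.05, 3.71, 3.14 and 3.29 in double-low cells, 2.63, 2.74, 2.55 and 2.34 in CD27 single-positives, 2.35, 2.64, 3.35, 3.78 and 2.83 in double-positives, 3.97, 3.30, 3.07, 2.30 and 3.28 in CD11b single-positives and 2.35 and 2.22 in B cells. The 4 CD27 single-positive arrays lay below the 4 double-low arrays, whereas the CD11b+ subsets overlapped. The CD27 difference was -0.59 ± 0.25 (limma adjusted p = 0.215), all 5 of its probes gave values from -0.59 to -0.51, and by slide it was -1.17, -0.42 and 0.52.

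**Figure D4:**
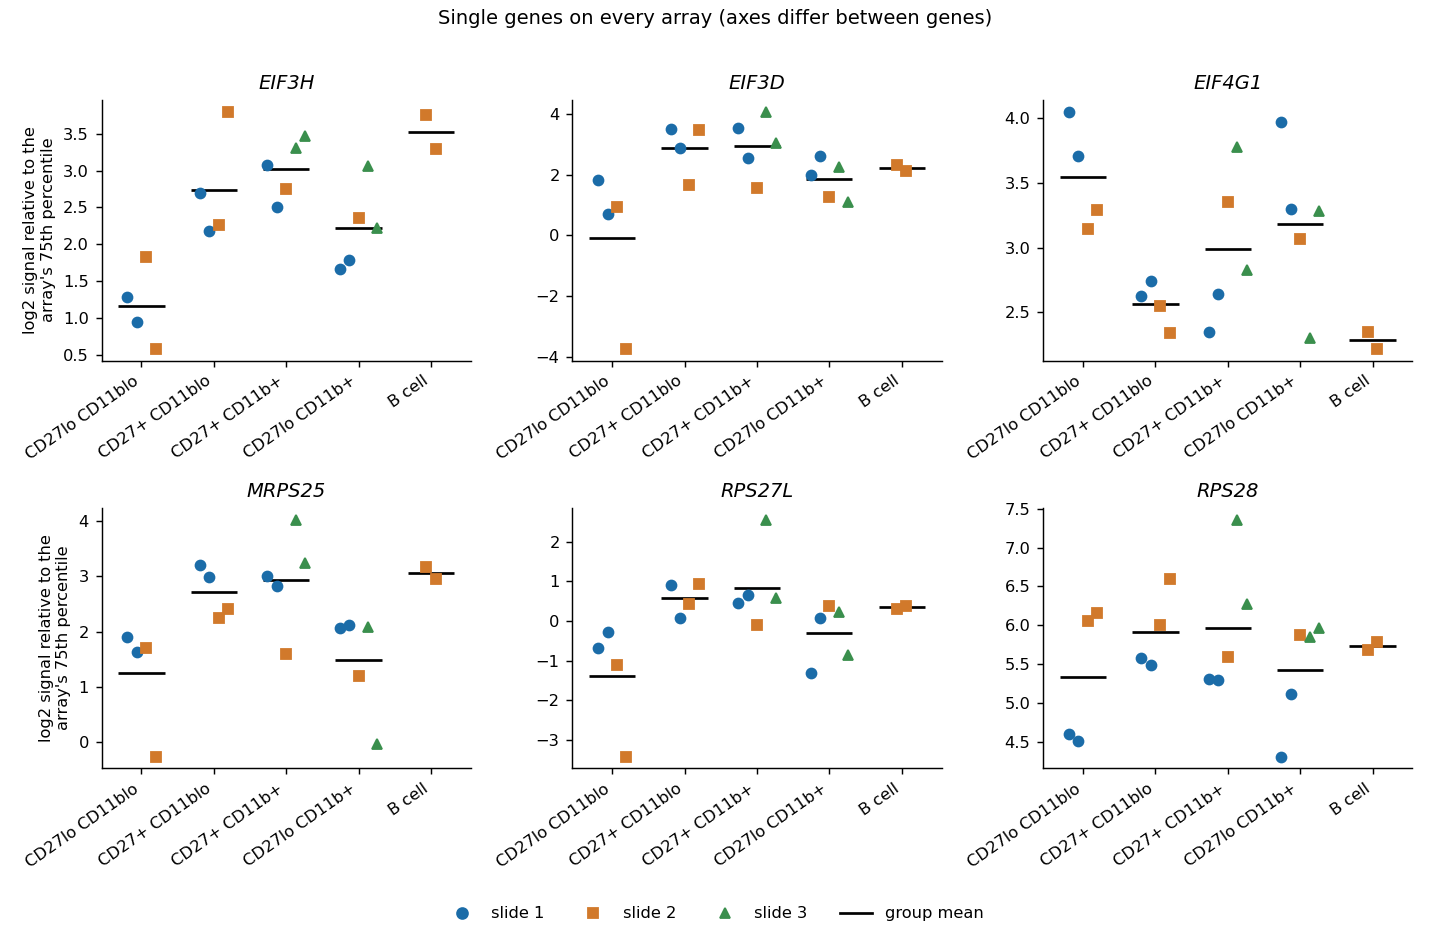
Level of EIF3H, EIF3D, EIF4G1, MRPS25, RPS27L and RPS28 on every array, as log2 signal relative to the array's 75th percentile (1 point per array marked by slide, line at the group mean, vertical axes differ). EIF3H runs from 0.58 to 1.83 in double-low cells and from 2.18 to 3.80 in both CD27+ subsets, EIF4G1 is higher in double-low cells than in CD27 single-positives, and RPS28 separates the first slide from the others.

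EIF2AK3 (PERK) phosphorylates eIF2 when the endoplasmic reticulum is stressed. It was at -2.48, -1.22 and -0.35 (lowest, median, highest) on CD27+ arrays and -7.64, -2.57 and -1.25 on CD27lo arrays, and above background on 18 of 20 arrays. The difference was 2.23 ± 0.72 (limma adjusted p = 0.199), with 2.16, 2.27 and 2.26 on the 3 slides. The heme-regulated kinase EIF2AK1 differed by 0.11 ± 0.57. EIF2S3, the gamma subunit of eIF2, gave 0.96 ± 0.50, and the eIF2B exchange factor subunits EIF2B2, EIF2B4 and EIF2B5 gave -0.85 ± 0.64, -0.16 ± 0.23 and -0.42 ± 0.33.

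Cap binding and its inhibitors showed no common direction. EIF4E, the cap-binding factor, differed by 0.11 ± 0.41 and its repressive homologue EIF4E2 by -0.04 ± 0.25 on its brightest probe, while its other 2 probes gave 1.38 and 1.2. EIF4EBP1 and EIF4EBP2 hold eIF4E inactive until mTOR phosphorylates them, and their differences had opposite signs: EIF4EBP1 was -0.56 ± 0.27 (limma adjusted p = 0.225) and EIF4EBP2 0.89 ± 0.37 (limma adjusted p = 0.211). EIF4EBP1 lay between 0.96 and 1.1 in the 4 CD27 single-positive arrays and between 1.45 and 1.99 in the 4 double-low arrays, but its highest NK level, 2.09, was in double-positive replicate 4. EIF1, which guards start codon choice, gave 0.58 ± 0.25 and EIF1AD 1.13 ± 0.48, at adjusted p of 0.215 and 0.213. EIF5A, the hypusinated factor that helps ribosomes along difficult stretches, differed by 0.11 ± 0.29 and its paralog EIF5A2 by -1.25 ± 0.48 (limma adjusted p = 0.202). EIF5A2 was -2.13 on the first slide alone and -0.25 on the second. EIF6, which keeps free large subunits apart from small ones, was -0.60 ± 0.33, on its brightest probe, while the other 2 gave 1.14 and 1.01.

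**Figure D5:**
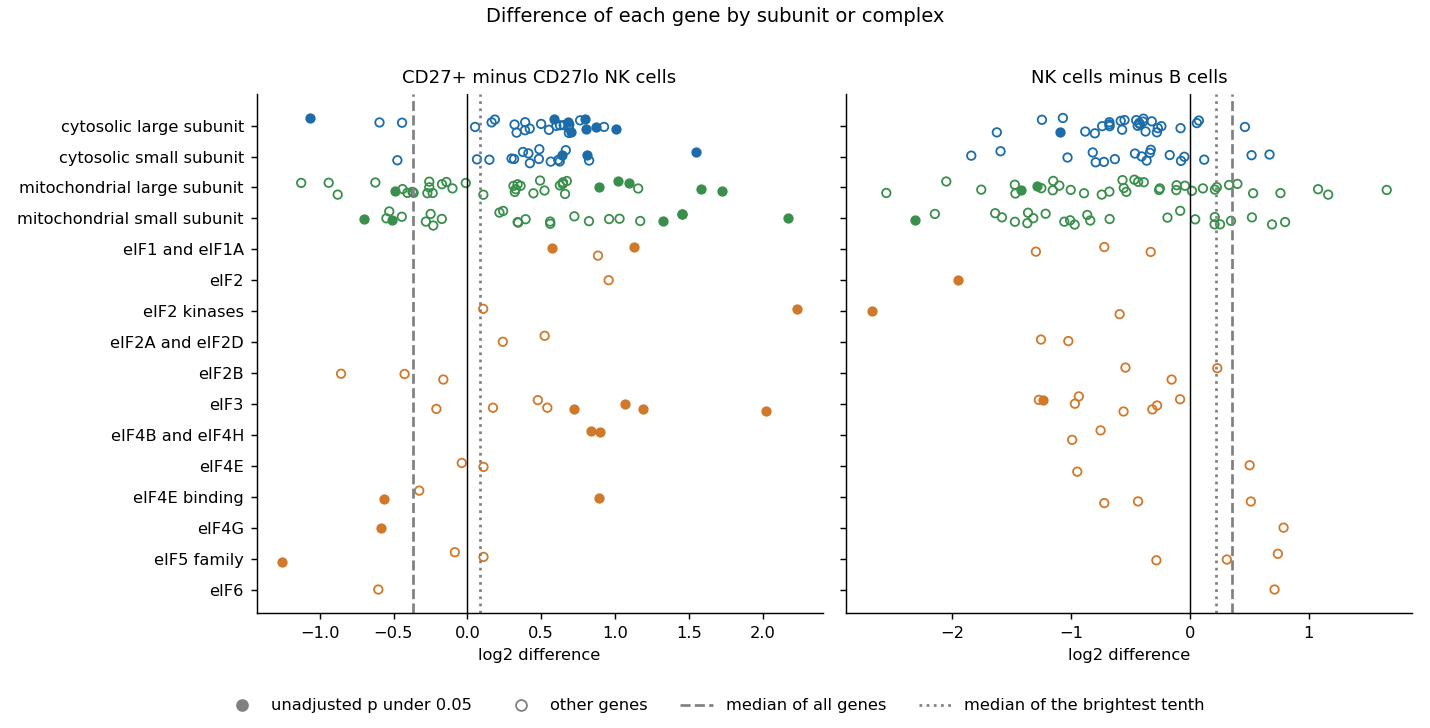
Log2 difference of each gene by subunit or complex between CD27+ and CD27lo NK cells (left) and between NK and B cells (right). Filled points have an unadjusted p under 0.05, none passes the adjusted test, and the lines mark the median of all genes (-0.37 and 0.36) and of the brightest 10% (0.08 and 0.22).

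CD11b status was compared the same way with CD27 balanced. Of the 139 genes 0 passed the adjusted test, as against 0.0164% of all genes (2 of 12192), and 2 (1.44%) reached an unadjusted p of 0.05, where 5.04% of all genes did. The medians were -0.01 for cytosolic, 0.07 for mitochondrial and 0.03 for initiation genes, beside -0.13 for all genes, and quantile normalization put the cytosolic median just above 0. With slide as a block the cytosolic median was -0.26, and on the second slide alone, with 1 array in each CD11b+ subset, it was -0.53. Both genes were higher in CD11b+ cells: EIF3H by 0.67 ± 0.28 and MRPL15 by 1.09 ± 0.48, each at a limma adjusted p of 0.945. EIF3H spanned 1.66 to 3.48 on CD11b+ and 0.58 to 3.80 on CD11blo arrays. MRPL15, of the mitochondrial large subunit, spanned -4.08 to -0.12 and -4.30 to -2.40, and its 3 highest levels were on the third slide (-0.12, -0.83 and -0.98), which held CD11b+ arrays only. On the first slide alone its difference was 0.10, and with slide as a block 0.34. The count was 4 in place of 2 without double-low replicate 1 or double-positive replicate 5, and 1 without double-low replicate 2 or 4 or CD11b single-positive replicate 4.

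Whether the CD27 difference depended on CD11b was tested as an interaction. It was called for 0 of the 139 genes and 0% of all genes, and 2 of the 139 (1.44%) reached an unadjusted p of 0.05, the same share as of all genes (1.44%). EIF1AD gave -2.35 ± 0.96 and MRPL22 -2.20 ± 0.87, both at a limma adjusted p of 0.9997. MRPL22 was -0.67, -0.12, 0.08 and -2.28 in double-low cells and 1.35, 1.26, 0.38 and 1.0 in CD27 single-positives, which did not overlap. In double-positives it was 1.47, 1.5, 0.31, -1.40 and 0.71 and in CD11b single-positives 0.13, 0.32, 1.36, 0.71 and 2.36, which did. On the first slide alone the value was -0.44, and without the 2 dimmest arrays -1.21. The class medians of the interaction were -0.03 for cytosolic, -0.50 for mitochondrial and -0.23 for initiation genes, beside 0.10 for all genes. The mitochondrial median was -0.12 on the first slide, -1.1 on the second, where each CD11b+ subset is 1 array, and -0.79 without CD11b single-positive replicate 5. The count was 4 without any 1 of double-low replicates 1 and 3, double-positive replicate 1, CD27 single-positive replicates 1 and 2 and CD11b single-positive replicate 1, and 5 without double-positive replicate 5.

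CD11b single-positives and CD27 single-positives form the ends of the sort. Their comparison shares arrays with those above, so it adds no independent evidence. Of the 139 genes 0 passed the adjusted test (0% of all genes), and 12 reached an unadjusted p of 0.05 (8.63% against 5.26% of all genes). These were 10 genes lower in CD11b single-positives (2.88% of all genes) and 2 higher (2.38% of all genes). The cytosolic median was -0.49 with 5 of 46 above 0, the initiation median -0.46 and the mitochondrial median -0.18, beside 0.19 for all genes. Without CD11b single-positive replicate 1 the cytosolic and initiation medians were -0.27 and -0.13, and without CD27 single-positive replicate 4 they were -0.27 and -0.17. The initiation median was also -0.27 without CD27 single-positive replicate 2 and -0.29 without CD11b single-positive replicate 5. For the mitochondrial genes the median was -0.10 with replicate 1 of the CD27 single-positives left out, -0.11 with their replicate 4 left out and -0.07 with CD11b single-positive replicate 5 left out. EIF2AK3 differed by -2.92 ± 1.02, RPL22L1 by -1.68 ± 0.65, RPL13A by -1.01 ± 0.42, EIF3M by -1.40 ± 0.63 and MRPS28 by -2.09 ± 0.92. The higher genes were EIF5A2 (1.86 ± 0.68) and MRPL38 (0.73 ± 0.35), and every one of the 12 had a limma adjusted p of 0.814. Normexp background correction brought EIF2AK3 to -1.72, and without CD11b single-positive replicate 5 RPL13A was -0.66, EIF3M -0.84 and MRPS28 -1.32. The count was 2 in place of 12 without replicate 1 of the CD27 single-positives, 3 without their replicate 4 or CD11b single-positive replicate 5, and 7 without CD11b single-positive replicate 3.

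A difference of any pattern among the 4 NK subsets was tested with limma's F test. It called 0 of the 139 genes and 0% of all genes, and 13 (9.35%) reached an unadjusted p of 0.05 against 8.73% of all genes. EIF3H came first with an unadjusted limma p of 0.0011, followed by EIF3D, RPS27L, MRPS25 and MRPS22, and all 13 had an adjusted p of 0.561. The count was 8 without CD27 single-positive replicate 4 (5.76%, against 7.33% of all genes). It was 21 without double-positive replicate 3 (15.1% against 15.3%). Of the 13 genes RPS27L was the 1 cytosolic ribosomal protein, 6 were mitochondrial and 6 were initiation genes.

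NK cells were set against B cells as the mean of the 4 subset means, over 12388 genes and all 20 arrays. The ribosomal and initiation genes were mostly below 0 in NK minus B cells: the median difference was -0.43 for cytosolic, -0.56 for mitochondrial and -0.56 for initiation genes, beside 0.36 for all genes and 0.22 for the brightest 10%. Of the 139 genes 0 passed the adjusted test, where 2.92% of all genes did. At an unadjusted p of 0.05, 7 of the 139 (5.04%) were reached against 22.7% of all genes. All 7 were lower in NK cells, a direction that held 5.2% of all genes, and 0 were higher, where 17.5% of all genes were. Other settings gave some higher genes among those at that level. They were 4 of 17 with slide as a block (2849 of 3808 for all genes) and 9 of 62 with array weights (4662 of 6697). No gene of the 139 had all 18 NK arrays above both B cell arrays (7.44% of all genes), and 2 had all below, EIF2AK3 and MRPS35 (1.44%, against 3.19% of all genes).

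The 2 B cell arrays limit this comparison, and they stood on the second slide alone. Without either one the count at an unadjusted p of 0.05 was 1, and it was 11 without CD11b single-positive replicate 4 and 12 without double-positive replicate 5. On the second slide alone the cytosolic median difference was -0.25, the mitochondrial -0.91 and the initiation -0.64, and 3 of the 139 genes passed the adjusted test against 1924 of 12388 genes. They were MRPS17 (-2.54 ± 0.52), EIF6 (1.34 ± 0.31) and MRPL10 (1.69 ± 0.42), at limma adjusted p of 0.0426, 0.0457 and 0.0494. The direction of EIF6 rests on its brightest probe, since over all arrays its other 2 probes gave NK minus B differences of -1.57 and -1.72.

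EIF3H was lower in NK than in B cells by a difference of -1.24 ± 0.43 (limma adjusted p = 0.111), with 15 of 18 NK arrays below both B cell arrays and CD27 single-positive replicate 4 above both. EIF2S3 read 0.85 and 0.78 in B cells and -4.25, -1.07 and 0.95 (lowest, median, highest) in NK cells, a difference of -1.95 ± 0.76 (limma adjusted p = 0.145). NK arrays numbered 17 of 18 below both B cell arrays for that gene, which was above background on 19 of 20. EIF2AK3 read 0.29 and 0.25 in B cells and -7.64, -2.14 and -0.35 in NK cells, a difference of -2.67 ± 1.11 (limma adjusted p = 0.169).

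Among mitochondrial genes MRPL16 differed by -1.42 ± 0.60, MRPS24 by -2.31 ± 1.02 and MRPL52 by -1.28 ± 0.60, at adjusted p of 0.176 to 0.209. MRPS35 lay at -2.01 and -1.99 in B cells and between -4.78 and -2.10 in NK cells, a gap of under 0.1 to the nearest NK array, with a difference of -1.05 ± 0.58. Of the cytosolic genes RPL15 had a difference of -1.09 ± 0.52 (limma adjusted p = 0.217), which was -0.68 without B cell replicate 1. RPS6 gave -0.79 ± 0.44 and RPS28 -0.07 ± 0.53. All 8 eIF3 subunits were below 0, with a median of -0.75, and EIF4G1 (0.79 ± 0.39), EIF5B (0.74 ± 0.46), which joins the subunits, and the brightest EIF6 probe (0.71 ± 0.51) were above 0. EIF4G1 was above both B cell arrays on 16 of 18 NK arrays.

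More than 1 probe was tested for 38 of the 139 genes. The CD27 difference had the same sign for all probes of a gene in 32 of these and opposite signs in EIF4E2, EIF5A, EIF6, MRPL39, RPL26L1 and RPS24. Between NK and B cells the signs differed in EIF4E2, EIF6, MRPL28, MRPL39, MRPS12 and RPS24. Ribosomal protein genes have many near-identical processed copies in primate genomes, so the source of a probe's signal is uncertain for the cytosolic class.

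Related lists that the symbol rule left out gave few calls. In the comparison of CD27+ with CD27lo cells no gene of 7 lists passed the adjusted test. The median was 0.56 over 19 cytosolic aminoacyl-tRNA synthetases (14 above 0), 0.57 over 10 RNA polymerase I genes (8 above 0) and 0.47 over 10 elongation and termination factors (7 above 0), beside -0.37 for all genes. It was 0.21 over 9 mitochondrial translation factors, 0.22 over 16 genes of growth control, 0.42 over 10 genes of the integrated stress response and -0.02 over 37 ribosome biogenesis genes. At an unadjusted p of 0.05, which 22.1% of all genes reached, there were 4 of 19 synthetases, 3 of 10 RNA polymerase I genes and 5 of 37 biogenesis genes. The other lists had 2 of 10 elongation and termination factors, 0 of 9 mitochondrial translation factors, 3 of 16 growth control genes and 2 of 10 stress response genes. Those of growth control were PDCD4, an inhibitor of eIF4A, at 2.01 ± 0.54 and the kinases RPS6KA1 and RPS6KA3 at 1.1 ± 0.42 and 1.38 ± 0.56. Those of the stress response were PPP1R15A, which directs eIF2 dephosphorylation, at 2.02 ± 0.73 and, lower, the serine synthesis enzyme PHGDH at -0.90 ± 0.39. Between NK and B cells 1 gene of the 7 lists passed, where 2.92% of all genes did. It was PPAN, 1 of 37 measured biogenesis genes, lower in NK cells by a difference of -2.74 ± 0.64 (limma adjusted p = 0.0236).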

How the data were processed

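RNA of 18 NK and 2 B cell samples was read on 1-colour Agilent arrays. Per the file headers, the deposited scanner files hold processed signal intensity from Agilent Feature Extraction, which subtracts background; per the submitters' processing notes its version was 10.7.1.1 and Partek was also used. The deposited value table holds log2 values whose method is not given in the sources used here; every column has a median of 8.02 and correlated at 0.994 to 1.0 with the log2 processed signal, which sets the scale and direction, while its centring is known only from that median. No scanner spot was saturated.

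The log2 intensity was scaled by subtracting the log2 of each array's 75th percentile, after control spots and 4 to 63 outlier spots per array were left out. Probes were named through RefSeq accessions (20417 of 58659 probes matched, 34.8%), and a gene was read from its brightest probe by mean signal. Genes above background on at least 4 of 18 NK arrays, or 2 of 20 with B cells, were tested in limma 3.58.1 (R 4.3.3; trend and robust empirical Bayes) with Benjamini-Hochberg adjustment over all genes at 0.05. The fits were tested on simulated data with known differences. A 2-fold difference was called in 13.2% of cases for CD27, 18.8% for CD11b, 7.2% for the ends and 2% for NK against B cells. For a 4-fold difference the shares were 70.8%, 69.2%, 43.2% and 34.4%, and a mean of 4, 0.8, 31.2 and 22 unchanged genes were called. Most differences of 2-fold would thus not be called. The p-values rest on the spread between these arrays, taken as independent although donor labels recur. They do not describe the spread between animals.

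The genes and lists were chosen with earlier results of these data known. Genes were named where they passed the adjusted test or, where none of a class did, for the lowest p in each direction, beside a list of core factors, the extremes of level and the largest spread among subsets; genes given only to complete a complex or a count were chosen after their values were seen. Normexp used the median foreground signal, since the mean was not in the files. Other alternatives covered scaling, the deposited table, filters, probes, slide, donor label, replicate number, array weights, single slides and single arrays left out. 1 further gene list is not reported here.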

Additional observations from a re-analysis of the deposited data

Results flagged for a closer look

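In 256 groups of 4 or 5 arrays examined for the named genes, 10 (3.91%) held 1 array far from the rest by Dixon's criterion, where chance gives about 1 group in 20. Among cytosolic ribosomal proteins, RPS27L read 2.56 in double-positive replicate 4, with the nearest array at 0.65. RPL15 read 0.4 in CD11b single-positive replicate 4, next to -0.56, and RPL13A read 0.56 in CD11b single-positive replicate 5, next to 2.14. Among mitochondrial ribosomal proteins, MRPS25 was at -0.26 in double-low replicate 4 (nearest 1.63), MRPS28 at -2.03 in double-positive replicate 3 (nearest -0.12), and MRPS27 at -3.46 (nearest 0.1) and MRPL41 at 1.51 (nearest -0.83) in double-positive replicate 4. Among initiation genes, EIF4EBP2 was at -1.2 (nearest 0.42) and EIF1AD at -1.75 (nearest 0.22) in CD11b single-positive replicate 1, and EIF4B at 2.56 in CD27 single-positive replicate 1 (nearest 3.11). Double-positive replicate 4 and double-low replicate 4, which hold 4 of the 10 values, were the 2 dimmest arrays, and the part of low signal in these values was not tested.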

How the results depend on the processing

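Counts here are of the 139 genes at an unadjusted limma p of 0.05 unless called, which means an adjusted p of 0.05, and the cause of each shift was not tested. For NK against B cells, 7 became 15 with quantile normalization and with the deposited table (10.8%, against 19% of all genes). It became 11 with the percentile over detected probes (7.91% against 21.3%) and 17 with a slide block (12.2% against 30.7%). Array weights gave 62 (44.6% against 54.1%) and called 44, where 45.8% of all genes were called. Without the 2 dimmest arrays, an alternative chosen after seeing the data, the count was 11 (7.91% against 23.4%). The mitochondrial median became -0.19 for genes above background on every array and -0.91 on the second slide. For CD27, 36 became 67 on the first slide (48.2%, against 46.2% of all genes). Array weights called 30 of the 139, where 32.3% of all genes were called, and the first slide called 14, where 11.3% were. The mitochondrial median became -0.10 for genes above background on every array and 0.001 on the second slide. For CD11b, 2 became 0 with a slide block (2.03% of all genes) and on the first slide (4.13% of all genes). It became 1 without the 2 dimmest arrays (0.719% against 4.69%). For the ends of the sort, 12 became 26 with a slide block (18.7%, against 7.04% of all genes). It became 21 with array weights (15.1% against 13%) and 28 on the first slide (20.1% against 18.2%). On the second slide each CD11b+ subset is 1 array, assumed to vary like the others, so values there rest on single arrays. For the interaction, 2 became 1 with array weights (0.719% against 1.78%) and 1 on the first slide (0.719% against 2.05%). It became 0 without the 2 dimmest arrays (0.886% of all genes). The mitochondrial median became -0.12 on the first and -1.101 on the second slide, and the initiation median -0.93 on the second. For any difference among subsets, 13 became 33 with array weights (23.7% against 36.7%), which called 1, where 1.69% of all genes were called. It became 27 on the first slide (19.4% against 22.7%) and 7 without the 2 dimmest arrays (5.04% against 8.21%).

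Signs turned for single genes as follows: on the first slide RPS27L (-0.034) and EIF2B2 (0.032) for CD11b and EIF2A (0.45) for the interaction; on the second slide RPL3L (0.065) for CD27 and RPL29 (-0.066) and RPL37 (0.48) for CD11b; and without the 2 dimmest arrays RPL23 (-0.033) for the interaction. Other alternatives kept 777 of the single-gene results on the same side of the threshold and put 21 past it.

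With 1 array left out at a time, none of the 139 genes was called in any comparison. The counts ranged from 1 to 12 for NK against B cells, 20 to 45 for CD27, 1 to 4 for CD11b, 2 to 5 for the interaction, 2 to 18 for the ends and 8 to 21 for any difference. The interaction's mitochondrial median ranged from -0.79 to -0.32, and the CD27 medians from 0.40 to 0.70 for cytosolic, 0.18 to 0.40 for mitochondrial and 0.10 to 0.43 for initiation genes.

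Arrays of the same replicate number deviated together in part: 17 of 25 pairs had a correlation over 0.1, with a median of 0.222 and a lowest of -0.299. For pairs of different numbers the median was -0.067. Replicate number 4 joins different donor labels in the CD11blo and the CD11b+ subsets, so not every such pair shares a label. Within each CD11b level, CD27+ and CD27lo arrays of the same number share origin and sex, and also age except in replicate 3. The labels name no animal, and the main fits did not take the numbers as pairing. With the replicate block, the count was 53 for CD27 (48 higher), which is 38.1% against 23.4% of all genes. It was 22 for the ends (15.8% against 6.04%), 5 for the interaction (3.6% against 2.19%) and 23 for any difference (16.5% against 9.61%). The replicate block was not run for B cells, whose replicates 1 and 2 carry other donor labels than NK replicates 1 and 2, nor the first slide alone, which holds no B cell array. Donor label as a random block gave 7 for NK against B cells (5.04% against 22.5%) and 37 for CD27 (26.6% against 24.6%). The alternative for saturated spots was not run because no spot was saturated. The 2 dimmest arrays and genes near background, most of them mitochondrial, limit what can be read from low signal.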
